A study of Mus musculus with 91 samples.

Results

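The genes described here are the glutathione, peroxiredoxin and thioredoxin redox genes of mouse bone marrow progenitors. They were taken by symbol: the glutathione transferases (Gst), glutathione peroxidases (Gpx), peroxiredoxins (Prdx), thioredoxin-named genes (Txn) and superoxide dismutases (Sod), together with Cat, Gclc, Gclm, Gsr, Gss, Mgst1, Mgst2, Mgst3, Nqo1 and Hmox1. The rule found 69 of the 23956 rows of the expression table. Single-cell RNA-seq had been done on 91 cells, of which 46 were labelled GMP (granulocyte-monocyte progenitors) and 45 were labelled CD11b+ GMP-P. CD11b is the myeloid integrin encoded by Itgam, and the labels do not spell out GMP-P. All cells came from C57BL/6 mice of the genotype Gfi1-R412X/- Irf8+/-. Both populations therefore carried the neutropenia-associated Gfi1 mutation opposite a missing allele, as well as 1 functional copy of Irf8. Wild-type cells were not analysed here, so no value below shows an effect of the genotype. The sorted fraction was lineage-negative, CD117+, Sca-1-, CD34+ and CD16/32-high. The labels name no animal, and they give each population an identifier of its own that they do not explain. Each population was therefore taken as 1 sample, no test was possible, and any difference in handling cannot be told apart from the difference between populations.

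Cells make reactive oxygen species in mitochondria and, in neutrophils, by the oxidative burst that kills microbes. Superoxide dismutases turn superoxide into hydrogen peroxide, which catalase, the glutathione peroxidases and the peroxiredoxins then remove. Glutathione peroxidases use glutathione, which glutathione reductase restores with NADPH, whereas most peroxiredoxins are restored by thioredoxin and thioredoxin reductase. Glutathione transferases attach glutathione to reactive compounds and lipid products.

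The unit throughout is log2(TPM + 1), where TPM is a transcript's share of the cell's transcripts after correction for length. Means are given ± SD over cells, and a difference is the CD11b+ GMP-P mean minus the GMP mean. The SD describes the spread of cells and is not an error of a population mean. TPM values of a cell sum to a fixed total, so fewer transcripts of a gene and more of other genes cannot be told apart. The populations differed in this respect. The number of genes above 0 per cell was 5294 ± 801 in GMP versus 4112 ± 953 in CD11b+ GMP-P, and the 50 highest genes of a cell held 27.3% and 48.9% of its TPM on average. For this reason differences are also given in the range of genes above 0 that both populations share, from 3947 to 5645 genes, which held 26 GMP and 21 CD11b+ GMP-P cells. The CD11b+ GMP-P cells also differed widely in Elane, the neutrophil elastase gene of primary granules. Elane was at 10 or more on the log2 scale in 43 of 46 GMP cells and in 29 of 45 CD11b+ GMP-P cells, and 2 and 5 cells lay near that limit, from 8 to 12. The 16 CD11b+ GMP-P cells below it had 3178 ± 579 genes above 0, so low Elane and few detected genes went together. Of the 21 CD11b+ GMP-P cells in the shared range, 20 had Elane at 10 or more. That range thus left out nearly all cells of low Elane. S100a8, a calprotectin gene, was at 5.65 in 1 of the 16 cells and at 16.9 to 17.6 in the others. In the 3 GMP cells of low Elane it was at 4.15 to 5.35.

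The labelled cell identity was checked against marker lists. Itgam, the gene of the CD11b label, was above 0 in 34 of the 45 CD11b+ GMP-P cells, at a mean of 3.68 ± 2.87, and in 13 of the 46 GMP cells, at 0.54 ± 1.37. The summed level of all 6 sort genes (Itgam, Ly6a, Cd34, Kit, Fcgr3 and Fcgr2b) was instead lower in CD11b+ GMP-P. Its median was 1391.5 TPM in GMP and 480 TPM in CD11b+ GMP-P, with ranges of 10.95 to 4748 and 0.62 to 2983. All 8 genes of the GMP and primary granule list were detected, with a median summed level per cell of 58768 TPM in GMP versus 16771 TPM in CD11b+ GMP-P, and the median sum of 7 secondary granule genes was 306 TPM and 96570 TPM. Red cell precursors hold much Cat, Gpx1 and Prdx2, so erythroid markers bear on these values. Of 13 erythroid markers, 4 were above 0 in any cell and none passed the filter used below. Hbb-b1, Hbb-b2, Hba-a2, Klf1, Epor, Alas2, Car1 and Slc4a1 were at 0 in all 91 cells. The erythroid sum reached 10 TPM in 2 GMP cells and 1 CD11b+ GMP-P cell, with ranges of 0 to 143 and 0 to 562 TPM. Monocyte markers were lower in CD11b+ GMP-P, with a median sum of 407 TPM in GMP (range 0.19 to 5071) and 3.27 TPM in CD11b+ GMP-P (range 0 to 2081). Of the monocyte list, 6 of 7 genes passed the filter, and its part in the results was not tested. The summed basophil, mast cell and eosinophil list reached 10 TPM in 22 GMP and 7 CD11b+ GMP-P cells, with ranges of 0 to 24457 and 0 to 130873 TPM. The lymphoid sum reached 10 TPM in 25 and 10 cells, the megakaryocyte sum in 3 and 5 and the macrophage sum in 9 and 10. The median dendritic sum was 1122 and 724 TPM. The part of these lists in the results was not tested either.

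Of the 69 redox genes, 15 were at 0 in every cell, which allows a share of cells of up to 3.30%. These were Gpx2, Gpx2-ps1, Gpx5, Gpx6, Gpx8, Gsta1, Gsta2, Gsta3, Gstm6, Gsto2, Gstt1, Gstt4, Sod3, Txndc2 and Txndc8. A further 11 were above 0 in only 1 to 8 cells and stayed below the filter, which asked for a value above 0 in at least 10% of the 91 cells. They were Gpx7, Gsta4, Gstk1, Gstm2, Gstm3, Gstm7, Gstp2, Hmox1, Nqo1, Prdx6b and Txnrd3. Heme oxygenase 1 (Hmox1) and the quinone reductase Nqo1, both textbook targets of the oxidant-sensing factor NRF2, were thus detected in few cells. Hmox1 was above 0 in 2 GMP and 3 CD11b+ GMP-P cells, and Nqo1 in 2 of each. The other 43 genes passed the filter, and 31 of them were above 0 in 50% or more of a population's cells.

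Of the 43 measured redox genes 40 had a lower mean in CD11b+ GMP-P, as had 7516 of all 9371 genes past the filter. The 3 with a higher mean were Gsr, Prdx5 and Mgst1, the last by 0.35. With Elane at 10 or more in both populations the difference of Mgst1 was -0.03. Of the 43, 24 were lower by 1 or more, 2 were higher by 1 or more (Gsr and Prdx5), and 17 differed by less. Among all 9371 genes past the same filter, 32% were lower by 1 or more and 2.61% were higher. The median difference was -1.05 over the redox genes and -0.56 over all genes. Commonly detected genes had larger differences in general: with a filter of 50% of cells, 53.2% of 4131 genes were lower and 3.66% higher, the median was -1.09, and the redox genes had 20 of 29 lower, 2 higher and a median of -1.20. Relative to the median of all genes, 15 of the 43 were lower by 1 or more and 2 higher, beside 18% and 6.78% of all genes, and with the filter of 50% 12 of 29 were lower and 3 higher, beside 20.1% and 16.5%. In the shared range of genes above 0, 12 of the 43 were lower and 3 higher, the third being Mgst2, and the median was -0.64, beside 17.8% lower, 6.27% higher and a median of -0.22 over all genes. All redox rows together held 2.13% ± 0.333 of a cell's TPM in GMP versus 1.63% ± 0.706 in CD11b+ GMP-P. Within CD11b+ GMP-P the share was 1.97% ± 0.588 in cells with Elane at 10 or more and 0.999% ± 0.403 in cells below.

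**Figure D1:**
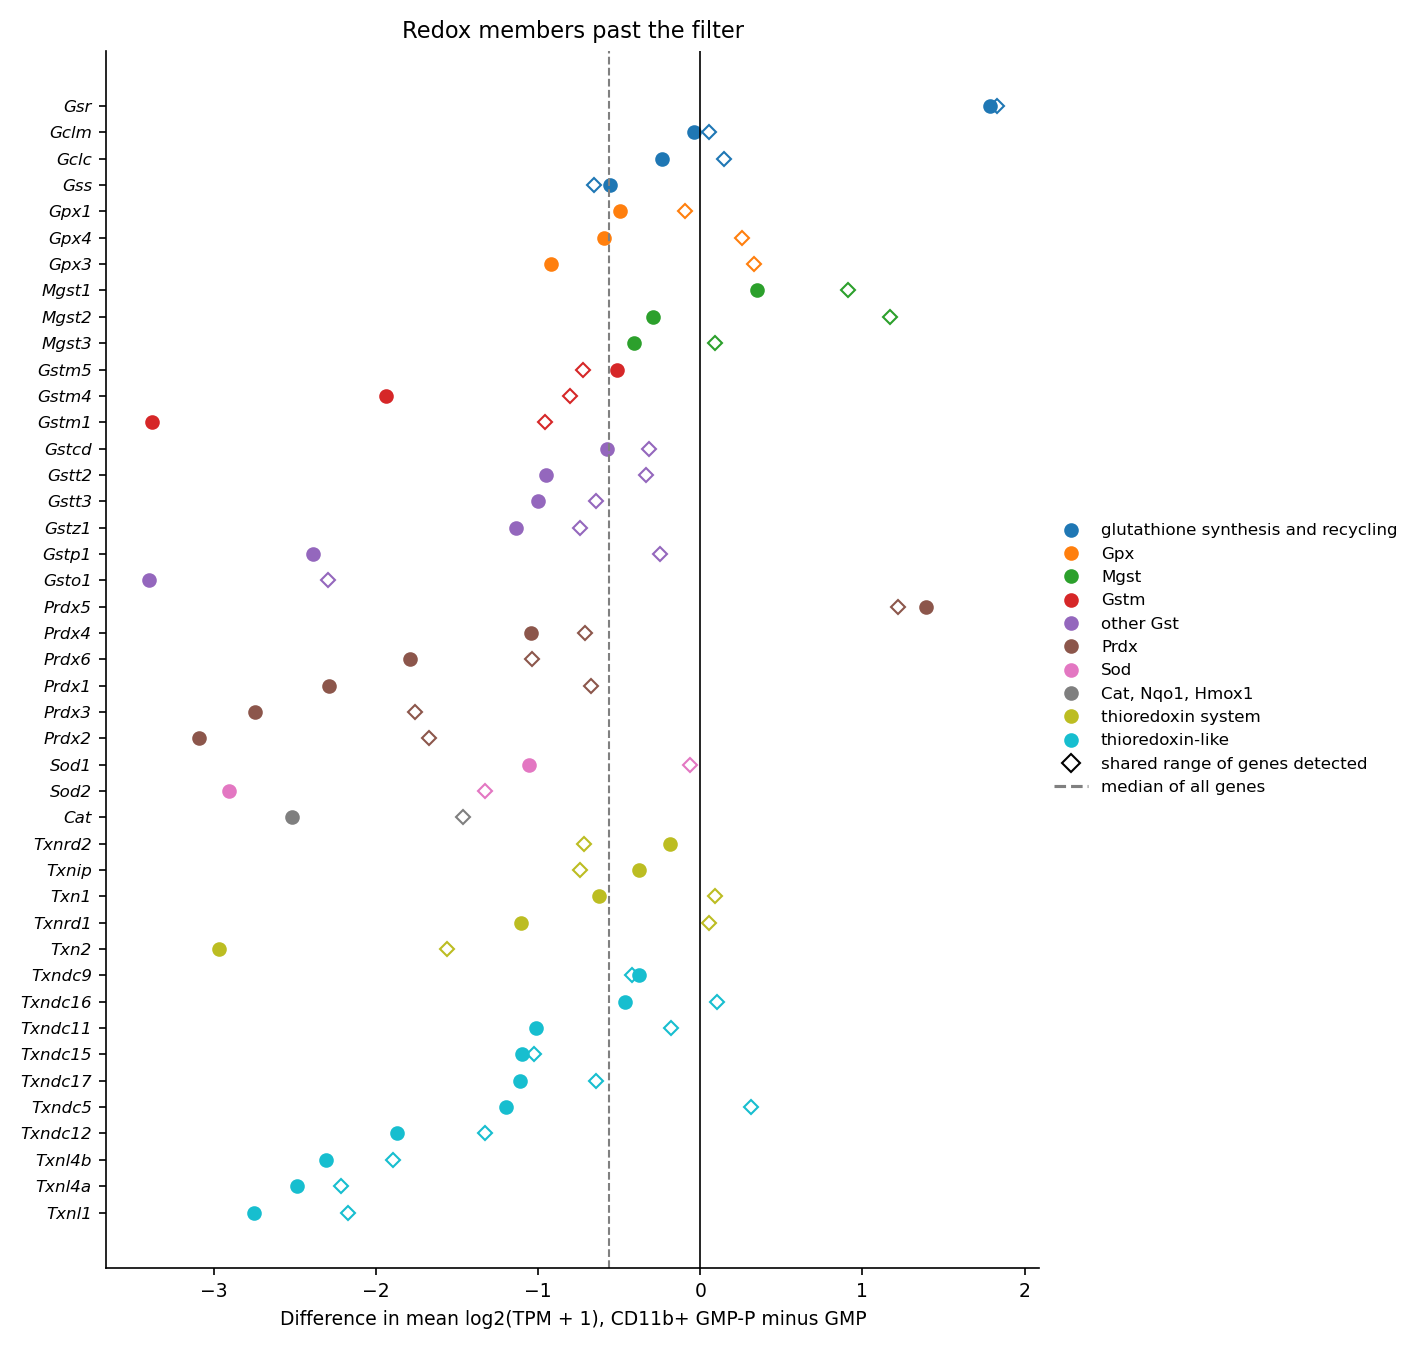
Difference in mean log2(TPM + 1), CD11b+ GMP-P minus GMP, for the 43 redox genes past the filter, coloured by family. Filled circles use all cells, open diamonds the shared range of genes above 0, and the dashed line marks the median of all genes at -0.56. Gsr and Prdx5 lie above 1 with both sets of cells, while Gstm1, Gstp1 and Sod1 lie much closer to 0 in the shared range.

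Glutathione reductase (Gsr), which turns oxidised glutathione back to its reduced form, had the largest positive difference of the redox genes. Gsr ranged from 0 to 8.75 with a median of 6.89 in GMP, and from 1.84 to 10.75 with a median of 8.57 in CD11b+ GMP-P. The ranges overlapped, but 20 of 45 CD11b+ GMP-P cells lay above the highest GMP cell and 38 lay above the GMP median. The means were 6.43 ± 2.06 and 8.22 ± 1.68, a difference of 1.79. In mean TPM the levels were 145 and 470. The difference was 1.83 in the shared range of genes above 0. The level of Gsr did not go with Elane within CD11b+ GMP-P, with means of 8.26 ± 1.29 at or above the limit and 8.15 ± 2.28 below it. The 3 GMP cells with low Elane held almost no Gsr, with a mean of 0.23, and with Elane at 10 or more in both populations the difference was 1.39.

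Glutathione synthesis itself was thinly detected. The catalytic and modifier subunits of glutamate-cysteine ligase, Gclc and Gclm, were above 0 in 8 and 15 GMP cells and in 5 and 17 CD11b+ GMP-P cells. Glutathione synthetase (Gss) was above 0 in 11 and 8 cells. Their differences were -0.24, -0.04 and -0.55, none reaching 1. That of Gclm kept its sign in only 3 of 9 alternatives. It was 0.09 when cells were rescaled by median of ratios and 0.52 with Elane at 10 or more in both populations. The difference of Gclc was 0.14 in the shared range. As log2 ratios of mean TPM, which a few high cells can set, the differences of Gclc, Gclm and Gss were -1.86, -1.42 and -1.45.

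Gpx1, the main cytosolic glutathione peroxidase, was the most abundant redox transcript per length. It ranged from 10.92 to 13.43 with a median of 12.79 in GMP, and from 7.04 to 13.54 with a median of 12.42 in CD11b+ GMP-P. Every cell held it, and the populations overlapped over most of their range. The means were 12.69 ± 0.45 and 12.20 ± 1.10. Its difference of -0.49 was near the median of all genes and became 0.44 when cells were rescaled by median of ratios. Gpx1 made up 92.7% ± 3.83 of glutathione peroxidase TPM in GMP versus 90.2% ± 13.5 in CD11b+ GMP-P. Gpx4, which reduces lipid peroxides in membranes, averaged 8.22 ± 1.76 and 7.63 ± 2.61, a difference of -0.59 that became 0.22 under the same rescaling. The secreted enzyme Gpx3 averaged 3.56 ± 3.45 and 2.64 ± 3.50. Its difference of -0.92 became 0.33 in the shared range and 0.26 with Elane at 10 or more in both populations. Among CD11b+ GMP-P cells Gpx3 averaged 4.05 ± 3.67 with Elane at 10 or more and 0.08 ± 0.18 below the limit. Reads of Gpx4 can be shared with a processed copy, since 36.9% of the 150-base windows of its transcript occur in Gpx4-ps2.

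Because Gsr was higher while Gpx1 was not, their ratio differed between the populations. The log2 ratio of Gsr to Gpx1 within a cell averaged -6.26 ± 1.85 in GMP versus -3.98 ± 1.92 in CD11b+ GMP-P. Such a ratio cancels the cell total except where a gene is at or near 0, as Gsr was in some GMP cells. In cells with Elane at 10 or more it averaged -5.89 ± 1.21 and -4.34 ± 1.40.

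The peroxiredoxins differed in makeup more than in total. Their summed level was 11.12 ± 1.19 in GMP versus 11.05 ± 0.55 in CD11b+ GMP-P. Prdx5, which works in mitochondria, peroxisomes and cytosol, ranged from 0 to 10.82 with a median of 8.70 in GMP, and from 1.46 to 11.39 with a median of 10.19 in CD11b+ GMP-P. The ranges overlapped, with 7 of 45 CD11b+ GMP-P cells above the highest GMP cell and 38 above the GMP median. The means were 8.24 ± 2.03 and 9.64 ± 1.74, a difference of 1.39, and mean TPM was 454 and 1138. With Elane at 10 or more in both populations the difference was 0.99, just short of 1. Like Gsr, Prdx5 was about as high in CD11b+ GMP-P cells with Elane below the limit, at 9.48 ± 2.40, as in those above it, at 9.73 ± 1.29. The lowest CD11b+ GMP-P cell, at 1.46, was the low-Elane cell with low S100a8.

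The other 5 measured peroxiredoxins were lower, in all 9 alternatives run on single genes. Of all genes past the filter 7516 of 9371 were lower with all cells, and how many stayed so was not counted. Prdx1, the abundant cytosolic form, ranged from 2.42 to 11.21 with a median of 9.89 in GMP, and from 0 to 10.58 with a median of 8.57 in CD11b+ GMP-P. Its means were 9.62 ± 1.37 and 7.33 ± 3.33, a difference of -2.29 that was -0.67 in the shared range. Inside the CD11b+ GMP-P population it averaged 8.95 ± 1.28 with Elane at 10 or more and 4.38 ± 3.89 below, so the low cells were mainly those of low Elane. Prdx2, a second cytosolic form, ranged from 0 to 10.45 with a median of 8.48 in GMP, and from 0 to 10.23 with a median of 5.61 in CD11b+ GMP-P. Its means were 7.83 ± 2.32 and 4.74 ± 4.12, and 1.29 ± 2.77 in CD11b+ GMP-P cells of low Elane. The highest of these, at 10.23, was the cell with low S100a8. Prdx3, the mitochondrial form, differed by -2.74, from 5.87 ± 3.20 to 3.12 ± 3.62. Prdx6, which uses glutathione rather than thioredoxin, differed by -1.79, from 8.26 ± 1.88 to 6.47 ± 2.86. Prdx4, the form of the endoplasmic reticulum, was above 0 in 16 GMP and 5 CD11b+ GMP-P cells.

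As a share of all peroxiredoxin TPM in a cell, Prdx5 averaged 18.1% ± 10.1 in GMP versus 51.9% ± 28.9 in CD11b+ GMP-P. Prdx1 averaged 39.4% ± 16.2 and 21.1% ± 19. Prdx5 was the highest peroxiredoxin in 5 of 46 GMP cells and in 31 of 45 CD11b+ GMP-P cells, and Prdx1 in 30 and 8 cells. Among CD11b+ GMP-P cells with Elane at 10 or more, Prdx5 held 43.6% ± 25.3 and led in 19 of 29 cells. Below the limit it held 66.8% ± 29.8 and led in 12 of 16 cells. In the shared range of genes above 0 its share was 19.4% in GMP versus 44.1% in CD11b+ GMP-P.

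**Figure D2:**
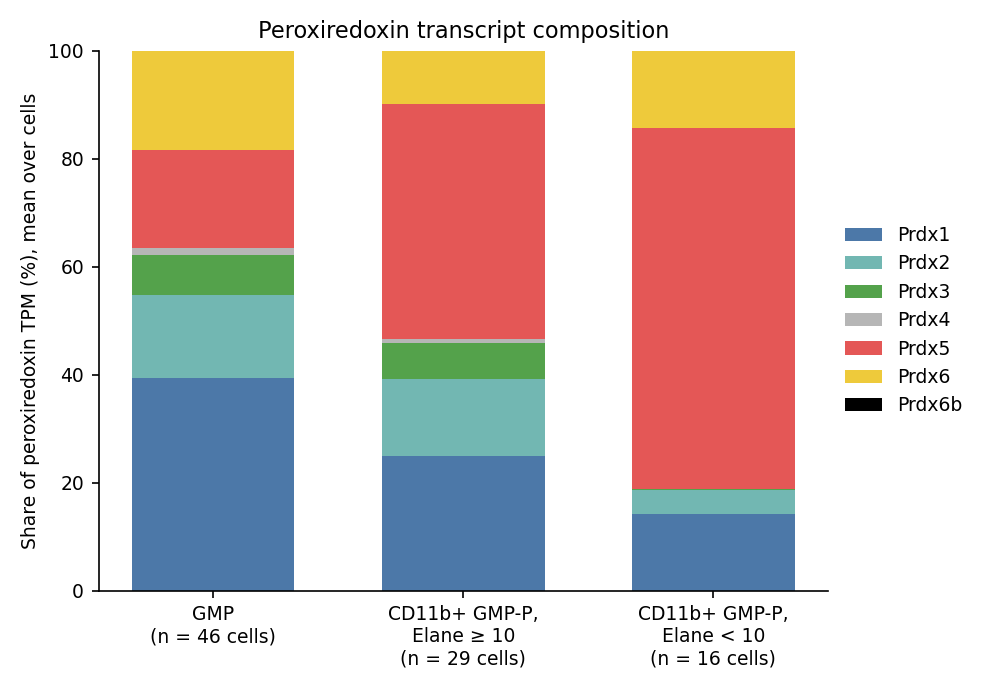
Mean share of peroxiredoxin TPM in percent (vertical axis) held by each peroxiredoxin in GMP cells and in CD11b+ GMP-P cells with Elane at 10 or more or below 10. Prdx5 takes 18.1%, 43.6% and 66.8% in turn, and Prdx1 39.4%, 25% and 14.2%.

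The Prdx5 gene overlaps Trmt112 on the annotated genome, and 19.8% of the windows of the Prdx5 transcript also occur in Trmt112 transcripts. The library kits do not mark strand, so such reads could be counted for either gene. Trmt112 itself averaged 7.62 ± 1.48 in GMP versus 5.76 ± 3.16 in CD11b+ GMP-P, a difference of -1.86 and so opposite in sign to that of Prdx5. Prdx1 and Prdx5 differed in opposite directions, and whether the sequences before their start sites bear on this was not tested. Those sequences are shown from RefSeq on GRCm38.p6, 5′ to 3′ on the strand of the gene and ending at the base before the start. Capitals mark a match to the antioxidant response element core, TGACNNNGC on either strand, to which NRF2 binds. Prdx1 is at chr4:116685349-116685598 on the plus strand and Prdx5 at chr19:6910107-6910356 on the minus strand.
Prdx1: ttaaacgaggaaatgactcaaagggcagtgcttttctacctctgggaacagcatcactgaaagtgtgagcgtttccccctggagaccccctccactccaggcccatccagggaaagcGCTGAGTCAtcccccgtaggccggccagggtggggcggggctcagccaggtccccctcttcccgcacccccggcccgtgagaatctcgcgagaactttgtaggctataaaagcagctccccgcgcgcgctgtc
Prdx5: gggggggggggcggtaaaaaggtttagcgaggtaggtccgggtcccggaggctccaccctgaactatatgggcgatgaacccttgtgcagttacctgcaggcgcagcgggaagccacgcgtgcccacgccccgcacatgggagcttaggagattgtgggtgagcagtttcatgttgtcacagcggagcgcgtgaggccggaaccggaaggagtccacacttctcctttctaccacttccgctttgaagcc
The Prdx1 window holds 1 match, on the minus strand, and the Prdx5 window holds none. The letters occur in 12.4% of all 32851 RefSeq windows of 300 bases, and in 11 of 77 windows (14.3%) of the redox genes, close to the share of all genes. Of the 69 redox genes 58 had a window. The measured ones with a match were Gclm, Gstm5, Mgst1, Prdx1, Sod1, Txndc11, Txndc5 and Txnrd1, and neither Gsr nor Prdx5 was among them.

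**Figure D3:**
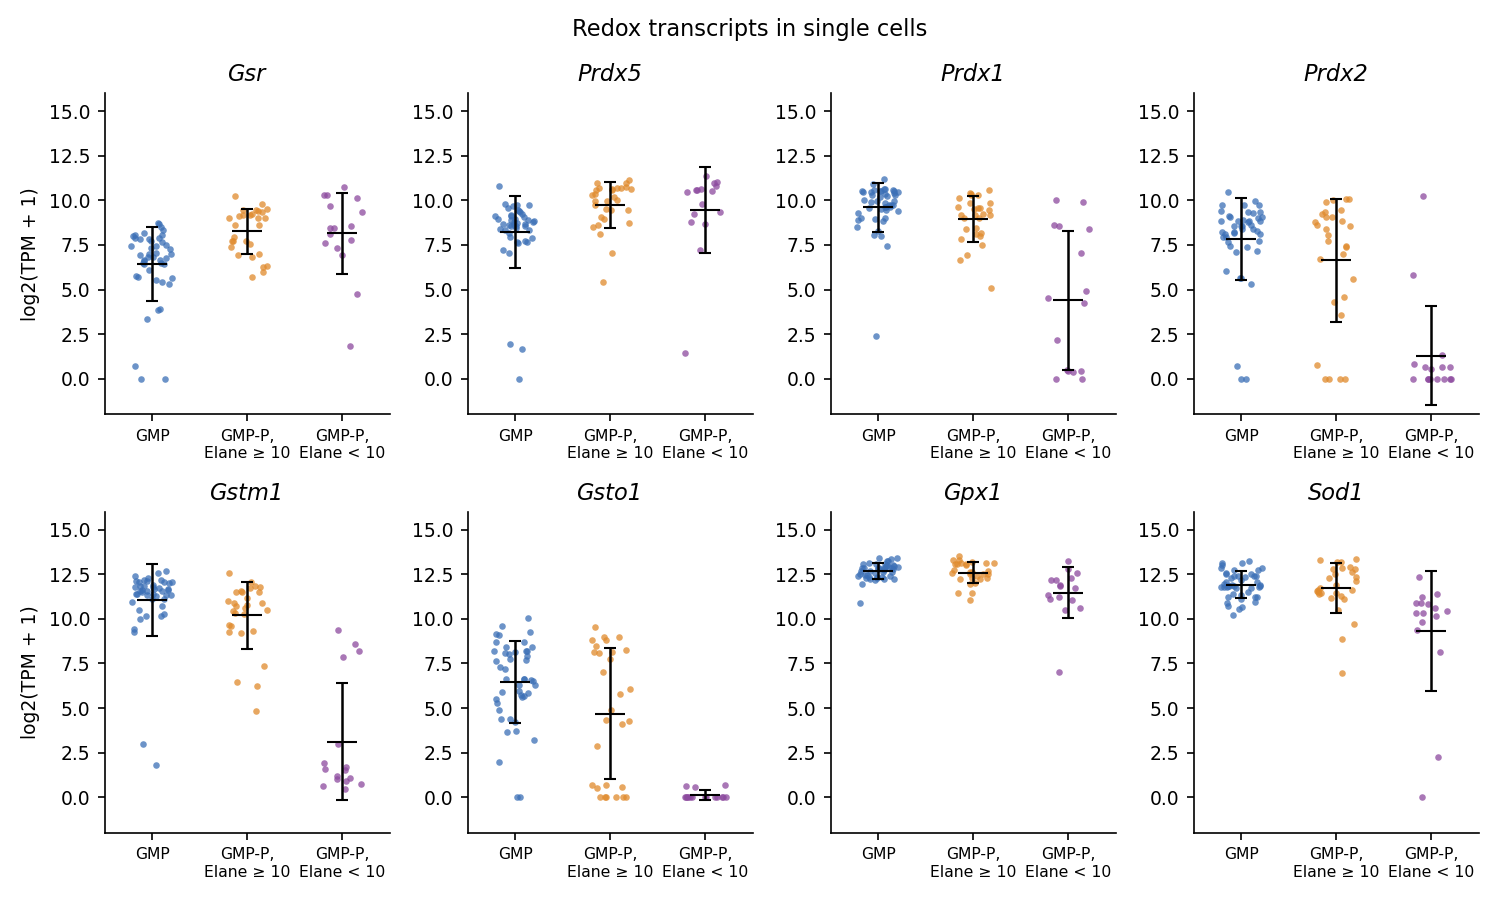
Level of 8 redox transcripts in log2(TPM + 1) (vertical axis) in single cells, with the mean and SD over cells, for GMP and for CD11b+ GMP-P split by Elane at 10. Gsr and Prdx5 are high in both parts of CD11b+ GMP-P, at means of 8.26 and 8.15 and of 9.73 and 9.48, whereas Prdx1, Prdx2, Gstm1 and Gsto1 are low in the cells of low Elane.

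Glutathione transferases of the mu class (Gstm) are encoded by similar genes side by side, so a read may be assigned to the wrong copy. The copies were therefore compared first. Of 1140 windows of 150 bases, the labelled read length, in the longest coding transcript of Gstm1, none occurred in another gene of GENCODE M21. The nearest coding sequence was that of Gstm3, at 89.4% identity and a longest shared run of 112 bases, followed by Gstm2 at 85.9% and 60 bases. The stretch around the longest shared run (bases 370 to 519 of the coding sequence) is shown for Gstm1 and 3 copies, with capitals at bases that differ from Gstm1.
Gstm1: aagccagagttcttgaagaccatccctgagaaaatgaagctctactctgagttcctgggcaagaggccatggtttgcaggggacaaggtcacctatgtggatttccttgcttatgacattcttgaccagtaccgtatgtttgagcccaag
Gstm3: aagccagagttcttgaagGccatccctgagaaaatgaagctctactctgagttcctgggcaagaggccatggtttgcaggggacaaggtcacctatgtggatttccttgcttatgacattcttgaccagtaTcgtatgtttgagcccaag
Gstm2: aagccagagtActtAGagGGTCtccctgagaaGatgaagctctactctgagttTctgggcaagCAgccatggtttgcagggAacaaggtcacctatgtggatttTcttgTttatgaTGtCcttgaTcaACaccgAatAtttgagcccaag
Gstm4: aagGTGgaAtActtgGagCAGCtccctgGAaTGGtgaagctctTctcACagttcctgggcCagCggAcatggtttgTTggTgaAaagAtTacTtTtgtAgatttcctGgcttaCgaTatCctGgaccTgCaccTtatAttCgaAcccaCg
In this stretch Gstm3 differs from Gstm1 at 2 bases, Gstm2 at 22 and Gstm4 at 42, so Gstm3 is the copy that reads of this region separate least well.

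Nearly all Gstm signal was assigned to Gstm1. It held 97.7% ± 3.53 of Gstm TPM in the 44 GMP cells with a Gstm sum of at least 10 TPM, and 95.3% ± 16.3 in 33 such CD11b+ GMP-P cells. Gstm1 ranged from 1.78 to 12.66 with a median of 11.59 in GMP, and from 0.44 to 12.56 with a median of 9.35 in CD11b+ GMP-P. The ranges overlapped, but 10 CD11b+ GMP-P cells lay below the lowest GMP cell and only 6 of 45 lay above the GMP median. The means were 11.06 ± 2.03 and 7.68 ± 4.2. The sum of all Gstm rows, which does not depend on the split between copies, averaged 11.09 ± 2.03 and 7.76 ± 4.2, a difference of -3.33. The lowest values were in cells of low Elane. Gstm1 averaged 10.20 ± 1.87 in CD11b+ GMP-P cells with Elane at 10 or more and 3.11 ± 3.28 below, and the Gstm sum differed by -0.77 between the former and all GMP cells. With Elane at 10 or more in both populations it differed by -1.2, and in the shared range by -0.89. In 2 of the 3 GMP cells with low Elane Gstm1 was also low, at 1.78 and 2.97. Among the CD11b+ GMP-P cells of low Elane the highest Gstm1, at 9.35, was in the cell with low S100a8. Gstm4 was above 0 in 27 GMP and 9 CD11b+ GMP-P cells and averaged 2.80 ± 3.08 and 0.86 ± 2.19. Gstm5 was above 0 in 9 and 3 cells, Gstm7 in 4 and 1, Gstm2 in 3 and 1, and Gstm3 in 1 GMP cell.

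**Figure D4:**
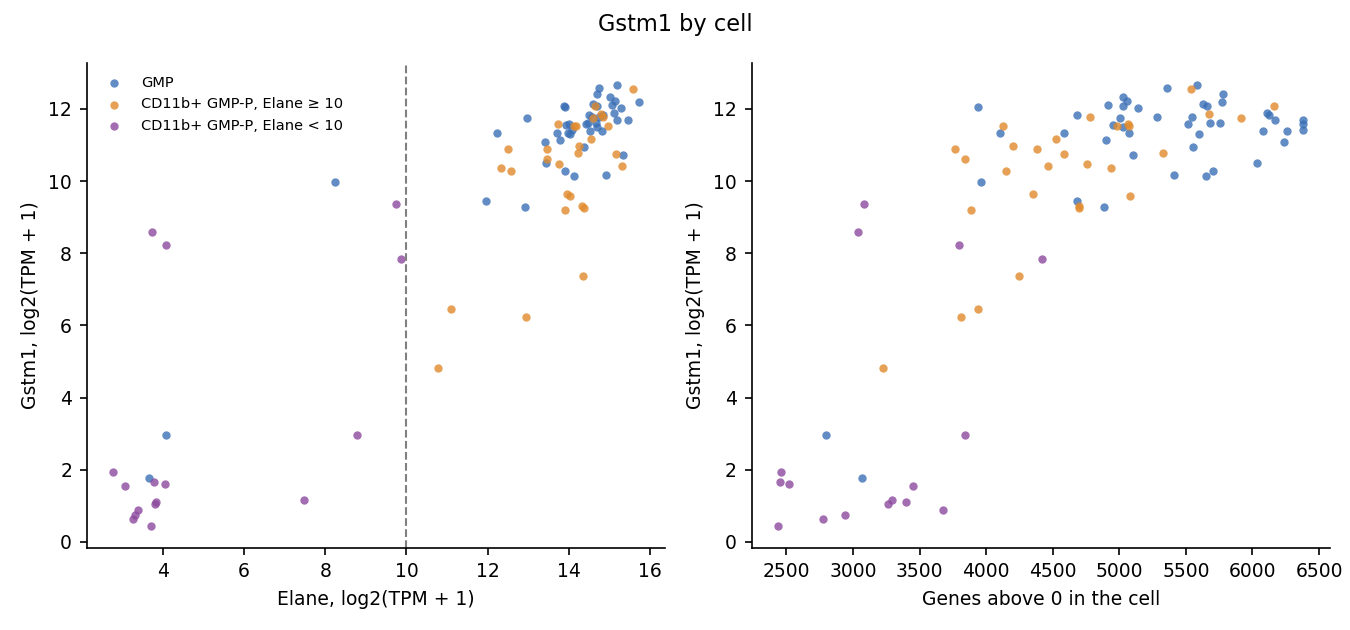
Gstm1 in log2(TPM + 1) for each cell against Elane on the same scale (left, dashed line at 10) and against the number of genes above 0 (right). Most cells of low Elane lie at low Gstm1 and have few genes above 0, so low Elane and few detected genes cannot be told apart here.

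Among the other transferases, Gsto1, an omega-class enzyme that also reduces dehydroascorbate, had the largest negative difference of all redox genes, close to that of Gstm1 (-3.38). It ranged from 0 to 10.07 with a median of 6.62 in GMP, and from 0 to 9.54 with a median of 0.65 in CD11b+ GMP-P. Only 18 of 45 CD11b+ GMP-P cells held at least 10 TPM, against 42 of 46 GMP cells. The means were 6.46 ± 2.30 and 3.06 ± 3.67, a difference of -3.40, which was -2.30 in the shared range. In CD11b+ GMP-P cells of low Elane it averaged 0.12 ± 0.26. The pi-class gene Gstp1 averaged 8.22 ± 2.36 and 5.83 ± 3.64, a difference of -2.39 that was -0.25 in the shared range. Its copy Gstp2 has a 98.1% identical coding sequence and was above 0 in 3 cells, so the 2 rows are best read together, and their sum averaged 8.22 and 5.83. Gstz1, which also acts in tyrosine breakdown, averaged 2.97 ± 3.36 and 1.83 ± 3.01. Gstt3, Gstt2 and Gstcd were above 0 in 11, 20 and 11 GMP cells and in 4, 11 and 3 CD11b+ GMP-P cells. The 3 microsomal transferases, which sit in membranes and handle lipid products, differed by less than 1. Mgst1 averaged 7.94 ± 2.83 and 8.29 ± 2.03, and it was as high in CD11b+ GMP-P cells of low Elane, at 8.0 ± 2.91. With Elane at 10 or more in both populations Mgst1 averaged 8.47 ± 2.02 and 8.45 ± 1.37. Mgst2 averaged 6.11 ± 3.12 and 5.82 ± 3.35, a difference of -0.29 that became 0.31 when cells were rescaled by median of ratios and 1.17 in the shared range. Among CD11b+ GMP-P cells Mgst2 averaged 6.95 ± 2.71 with Elane at 10 or more and 3.76 ± 3.49 below, so it was lower in the cells of low Elane. Mgst3 was above 0 in 17 GMP cells and 13 CD11b+ GMP-P cells, none of the latter with Elane below 10. Its mean TPM was 43.6 and 74.3. The Mgst3 difference of -0.41 became 0.09 in the shared range and 0.46 with Elane at 10 or more in both populations.

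Of the superoxide dismutases, the cytosolic copper-zinc enzyme Sod1 ranged from 10.20 to 13.27 with a median of 11.88 in GMP, and from 0 to 13.37 with a median of 11.38 in CD11b+ GMP-P. The populations overlapped, and 9 CD11b+ GMP-P cells lay below the lowest GMP cell. Its means were 11.93 ± 0.74 and 10.87 ± 2.54, and its difference of -1.06 was -0.07 in the shared range. The mitochondrial manganese enzyme Sod2 differed more, from 6.23 ± 1.76 to 3.33 ± 3.0, with 19 of 45 CD11b+ GMP-P cells below the lowest GMP cell at 1.2. Its difference of -2.90 was -1.32 in the shared range. Catalase (Cat) ranged from 0 to 9.31 with a median of 6.10 in GMP, and from 0 to 8.79 with a median of 0.53 in CD11b+ GMP-P. It averaged 4.98 ± 2.91 and 2.46 ± 3.12, and 14 CD11b+ GMP-P cells held at least 10 TPM against 32 GMP cells.

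In the thioredoxin system the cytosolic and mitochondrial forms differed. Cytosolic Txn1 averaged 8.47 ± 0.95 in GMP versus 7.85 ± 2.09 in CD11b+ GMP-P, a difference of -0.62 that became 0.25 when cells were rescaled by median of ratios. Mitochondrial Txn2 ranged from 0 to 9.89 with a median of 8.17 in GMP, and from 0 to 10.16 with a median of 3.70 in CD11b+ GMP-P. Its means were 6.91 ± 2.97 and 3.94 ± 3.60, a difference of -2.97, and only 6 of 45 CD11b+ GMP-P cells lay above the GMP median. Txn1 held 59.6% ± 27.8 of the summed TPM of thioredoxins and their reductases in GMP versus 77.5% ± 27.9 in CD11b+ GMP-P, and Txn2 37.1% ± 27.5 and 19.5% ± 27.2. The cytosolic reductase Txnrd1 averaged 2.54 ± 2.29 and 1.44 ± 2.32, and the sign of its difference depended on the cells and scale used. The mitochondrial reductase Txnrd2 was above 0 in 9 and 5 cells, Txnrd3 in 1 CD11b+ GMP-P cell, and the thioredoxin inhibitor Txnip in 19 and 14 cells.

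The thioredoxin-like genes share the protein fold and serve other tasks. All 10 measured ones had lower means in CD11b+ GMP-P, although Txndc9 was at 0.09 when cells were rescaled by median of ratios, and 8 were lower by 1 or more. Among all genes past the filter, 7516 of 9371 had a lower mean and 32% were lower by 1 or more. The proteasome-associated Txnl1 averaged 6.13 ± 1.90 and 3.38 ± 3.05. The spliceosome genes Txnl4a and Txnl4b averaged 7.41 ± 1.87 and 4.92 ± 3.30, and 4.81 ± 3.37 and 2.5 ± 3.66. Of the protein-folding and related genes, Txndc12 differed by -1.87, Txndc5 by -1.20, Txndc17 by -1.11, Txndc15 by -1.10, Txndc11 by -1.01 and Txndc9 by -0.38. The differences of Txndc5, Txndc17, Txndc11 and Txndc16 changed sign in 1 alternative each, and that of Txndc9 in 3, up to 0.55 as a log2 ratio of mean TPM. Txndc16 was above 0 in 15 and 7 cells.

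Other genes of redox metabolism were taken from 5 lists, to be read beside the 32% lower, 2.61% higher and median of -0.56 over all genes. Of the NADPH supply genes, which feed both reductases, 13 of 14 passed the filter, 5 were lower by 1 or more and none was higher, with a median of -0.39. Idh2, the mitochondrial isocitrate dehydrogenase, averaged 7.14 ± 2.53 and 3.12 ± 3.65, and Idh1 and Mthfd1 differed by -2.13 and -2.04. Of 10 regulators of the NRF2 response, 1 was lower and none higher, with a median of -0.34. Nfe2l2, which encodes NRF2, averaged 4.99 ± 3.17 and 3.41 ± 3.27, and its repressor Keap1 and its partner Mafg differed by -0.96 and 0.96. Of 12 glutaredoxins, sulfiredoxin and related repair genes, 8 passed the filter, with 1 lower, 2 higher and a median of -0.52. Glutaredoxin (Glrx), which uses glutathione to free protein thiols, averaged 6.16 ± 3.19 and 7.88 ± 2.12, a difference of 1.72 on the same side as Gsr. Msrb1, which repairs oxidised methionine, differed by 1.44, and the iron-sulfur protein gene Glrx3 by -4.15. Of 20 genes of cysteine and glutathione handling, 11 passed, 3 were lower, none was higher and the median was -0.74. These 3 were Glo1, at -3.31, Esd, at -1.56, and Lancl1, at -1.37, and the difference of Esd was 0.05 in the shared range. Of 10 iron and heme genes, 2 were lower and 1 higher, with a median of -0.60. Hmox2 differed by -3.49, the ferritin heavy chain gene Fth1 by -2.17 and the iron exporter gene Slc40a1 by 1.04.

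Variation between cells of 1 population was set against S100a8, a calprotectin gene abundant in maturing neutrophils, in cells with Elane at 10 or more. In all, 172 correlations were computed, and those given were chosen after their values were seen. Prdx5 went up with S100a8 across 43 GMP cells (Pearson r 0.49, Spearman rho 0.46, r 0.49 without the 2 farthest cells). Across 29 CD11b+ GMP-P cells r was 0.70, rho 0.74 and r without the 2 farthest cells 0.58. Sod1 went down with S100a8 in the same cells, with r of -0.62 and rho of -0.63 in GMP, r of -0.58 without the 2 farthest cells, and r of -0.46, rho of -0.76 and r of -0.57 in CD11b+ GMP-P. Gsr had r of 0.42 and rho of 0.49 in GMP, r of 0.41 without the 2 farthest cells, and r of 0.22 and rho of -0.05 in CD11b+ GMP-P. The cells of a population were taken as 1 sample, and the TPM of each cell sum to a fixed total. In CD11b+ GMP-P S100a8 also went with fewer genes above 0 (rho -0.66), and Prdx5 had rho of -0.58 with that number, whereas in GMP these were 0.12 and 0.01.

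**Figure D5:**
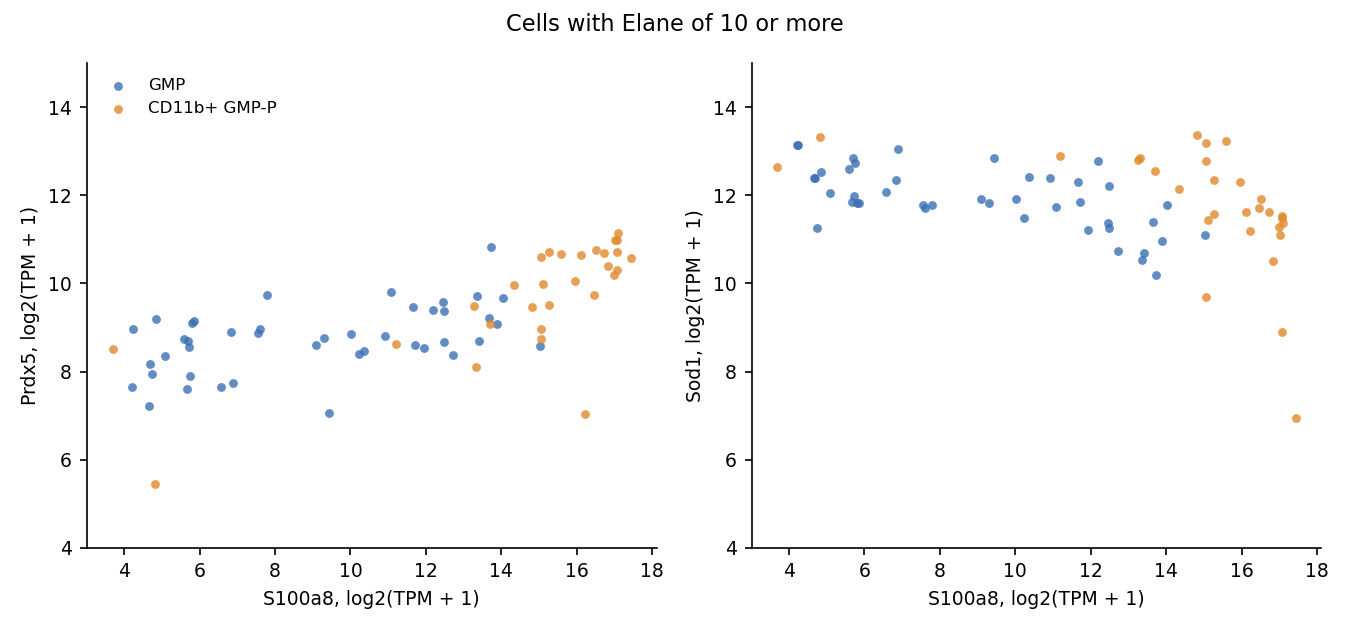
Prdx5 (left) and Sod1 (right) against S100a8, all in log2(TPM + 1), for single cells with Elane at 10 or more, 43 from GMP and 29 from CD11b+ GMP-P. Prdx5 is higher and Sod1 lower where S100a8 is high, with rho of 0.46 and -0.63 in GMP versus 0.74 and -0.76 in CD11b+ GMP-P.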

How the data were processed

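Single cells had been captured on a Fluidigm C1 chip, with SMARTer cDNA and Nextera XT libraries read as pairs of 150 bases, per the labels' protocols. The submitters' processing notes name RSEM and the build mm9. Aligner and annotation were not given in the sources used here. The authors deposited 1 table of log2 values, which sum to between 999999 and 1000076 per cell on the linear scale after subtracting 1, and are thus log2(TPM + 1). TPM keeps no depth, and 80.3% of values were 0. Amplified reads carry no molecular identifiers, and intervals or limits cover counting error only. All 91 columns were mapped to samples by their names, and no 2 columns were identical (highest correlation 0.736). No doublet caller was run.

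Mean log2(TPM + 1) per population, the SD over cells and their difference were computed with Python 3.11.15, numpy 2.4.6 and pandas 2.3.3, after tests on simulated data, and figures with matplotlib 3.10.9. A difference was counted from a size of 1, among genes above 0 in 10% or more of all cells. Family shares used cells with a family sum of at least 10 TPM. Named were the redox genes above 0 in 50% or more of a population's cells, every detected Gstm row, the largest difference of each family, and up to 3 genes of each of 5 other lists. The genes, lists and the Elane limit of 10 were chosen with earlier results of these data known. All 69 symbols were current. Windows and coding sequences came from GENCODE M21, promoters from RefSeq on GRCm38.p6, and no mm9 coordinates are given. Alternatives changed the pseudocount, scaling, filter and cells used.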

Additional observations from a re-analysis of the deposited data

How the results depend on the processing

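No paired analysis was possible because the cell numbers (GMP 1 to 48, CD11b+ GMP-P 49 to 96) are shared by no pair of cells and each population is 1 sample. In all alternatives more redox genes were lower than higher by 1 or more, which also held for all genes. The median of the redox genes stayed negative and below that of all genes. The sizes did not hold, and the causes were not tested. Of the 21 CD11b+ GMP-P cells in the shared range 20 had high Elane, so this alternative overlaps those by Elane. The 24 genes lower by 1 or more, beside 32% of all genes, became 12 in the shared range of genes above 0 (17.8% of all genes), 13 with CD11b+ GMP-P cells of high Elane only (19.6%), 14 with high Elane in both populations (22.7%), 14 with median of ratios scaling over 1637 genes (21.9%), 13 with a pseudocount of 10 (13.5%), 15 relative to the median of all genes (18%), 11 of 29 with a filter of 50% in the shared range (26.7%), and 28 with a pseudocount of 0.1 (48.5%). The 2 higher genes, beside 2.61% of all genes, became 1 with high Elane in both populations (2.9% of all genes). The number was 3 in the shared range (6.27%) and with median of ratios scaling (4.63%, Mgst1 at 1.23 but at -0.03 with high Elane in both populations). With a filter of 50% in the shared range it was 3 of 29 (8.67%). The median of -1.05 became -0.64 in the shared range, -0.52 and -0.58 with high Elane in CD11b+ GMP-P or in both, -0.83 as a ratio of mean TPM, -0.77 with median of ratios, -0.38 with no filter, -0.49 with a pseudocount of 10, -0.64 with a filter of 50% in the shared range, -0.99 without the 10% of cells with the most genes, and -1.56 with a pseudocount of 0.1. Median of ratios scaling moved the median of all genes from -0.56 to -0.33. The Gstm sum, -3.33, became -0.77 with high Elane in CD11b+ GMP-P and -0.89 in the shared range, and stayed past 1 with high Elane in both populations (-1.2) and as a ratio of mean TPM (-1.27). The difference in Prdx5 share kept its sign and ranged from 24.7 to 37.9 percentage points around 33.8. It was smallest in the shared range, and the SD over all CD11b+ GMP-P cells was 28.9. Of the 26 redox genes past 1, 4 stayed past it in all 9 alternatives run on single genes: Gsr higher, and Cat, Txn2 and Txnl1 lower. Prdx5 did in 8, with 0.99 for high Elane in both populations. The sign stayed the same in all 9 alternatives for 28 of the 43 measured redox genes. Such counts over alternatives were not made for all genes, so they do not set the redox genes apart. Among the 26 past 1, it turned for Txnrd1 (0.19 as a ratio of mean TPM, 0.0539 in the shared range). It also turned for Txndc11 (0.56 as a ratio), Txndc17 (0.0038 as a ratio) and Txndc5 (0.32 in the shared range). Outside the redox genes, Esd was at 0.0514 in the shared range. The filter of 50%, high Elane in both populations, the alternatives of the Prdx5 share and the correlations were chosen after seeing the data. With TPM alone, precision at low levels could not be computed.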
